A study of Mus musculus with 4 samples.

Results

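Cdx1, Stra6 and Tgm2 are 3 mouse genes known to respond to retinoic acid, and they were 3 of the 1593 genes in the authors' deposited table of PC against PD cells. They were picked by name, with their PC and PD values already known, so the comparison of their levels between PC and PD is a description and carries no test. The cells were 46C, a line of mouse embryonic stem cells in which the Sox1 locus carries green fluorescent protein. PC cells were kept for 24 h in serum with 1 µM PD0325901, which inhibits the kinase MEK, and with CID755673, which inhibits protein kinase D. PD cells had the same serum, time and PD0325901 dose and no CID755673. The sources used here do not give the CID755673 dose, and the labels name no added retinoid in either group. RNA was sequenced from 2 libraries per group. The comparison asks which genes CID755673 regulates in cells that also receive the MEK inhibitor.

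Retinoic acid is made inside cells from retinol, a form of vitamin A, and binds nuclear receptors (RAR, paired with RXR) that sit on DNA at repeated hexamers and switch nearby genes on. Embryonic stem cells leave pluripotency when given retinoic acid, and many Hox genes, which set position along the body axis, are activated in that process. Stra6 encodes a cell-surface receptor that takes up retinol from its carrier in blood, Cdx1 a caudal-type homeobox factor that regulates Hox genes in the posterior embryo, and Tgm2 a transglutaminase that cross-links proteins. Each has long been used as a retinoic acid responsive gene, and none of these roles was measured here.

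All 3 genes had higher levels in both PC libraries than in both PD libraries, as 38.2% of all listed genes did, which the choice of the genes already fixed. Values are normalized reads, that is reads divided by the authors' size factor of each library. The 3 genes together had 1524 and 1554 normalized reads in PC replicates 1 and 2, against 523.6 and 473.8 in PD replicates 1 and 2. Tgm2 held 63.3% and 55.4% of that sum in PC and 70.4% and 64.6% in PD, and Cdx1 held 24.8% and 29.3% in PC and 15.0% and 17.6% in PD. The share of Stra6 was 11.9% and 15.3% in PC and 14.6% and 17.8% in PD. Thus the share of Cdx1 was higher in both PC libraries than in both PD libraries, the share of Tgm2 was lower, and that of Stra6 overlapped between the groups. Whether more cells expressed a gene or each cell held more of its RNA cannot be told apart in bulk samples.

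Stra6 (ENSMUSG00000032327) is the retinol receptor and acts first among the 3, at the cell surface. It lies on the forward strand of chromosome 9 and has 13 coding transcripts in GENCODE M21, the longest with 19 exons and 3077 bases. It had 181 and 238 normalized reads in PC replicates 1 and 2, from 218 and 200 reads, and 76.6 and 84.3 in PD replicates 1 and 2, from 79 and 92 reads. The 2 PD libraries were close to each other, PC replicate 2 was 1.32 times PC replicate 1, and the groups did not overlap. The exact Poisson intervals at 95%, which cover counting error only, were 157 to 206 and 206 to 273 in the PC libraries and 60.6 to 95.5 and 68.0 to 103 in the PD libraries. The means were 209 ± 40.5 in PC and 80.5 ± 5.45 in PD (SD, n = 2 each). The difference was 1.36 on the log2(value + 1) scale, a 2.60-fold ratio of the means, and the 4 ratios of a PC to a PD library ran from 2.14 to 3.11.

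RefSeq gives 4 start windows for Stra6 on GRCm38.p6, each of 300 bases and ending shortly after a start, and all 4 lie on the forward strand. The deposited values are per gene and do not tell the starts apart. Shown are the window farthest upstream of the 4, at chr9:58128838-58129137, and the third, at chr9:58133825-58134124, which is the only one of the 4 to hold a hexamer of the kind that RAR binds in pairs. Capitals mark GGGCGG, the GC box, on the reverse strand in the first sequence, and AGTTCA on the forward strand in the second.

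Stra6 window 1: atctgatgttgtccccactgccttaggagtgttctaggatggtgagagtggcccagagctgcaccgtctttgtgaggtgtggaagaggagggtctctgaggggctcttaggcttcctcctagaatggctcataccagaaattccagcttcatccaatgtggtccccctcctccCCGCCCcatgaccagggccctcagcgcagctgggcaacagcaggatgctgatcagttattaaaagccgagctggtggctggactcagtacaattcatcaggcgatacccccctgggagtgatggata

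Stra6 window 3: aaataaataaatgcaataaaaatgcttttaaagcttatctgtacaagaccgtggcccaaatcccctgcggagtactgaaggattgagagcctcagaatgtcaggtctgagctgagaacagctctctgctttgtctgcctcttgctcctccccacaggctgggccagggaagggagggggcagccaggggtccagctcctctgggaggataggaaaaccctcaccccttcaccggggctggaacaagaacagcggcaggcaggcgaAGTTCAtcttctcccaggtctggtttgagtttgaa

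Both strands were searched. A single AGTTCA stood in 1 of the 4 Stra6 windows and in 14.0% of all 32851 windows in the RefSeq table. The other hexamers searched were AGGTCA, which is in 16.3% of all windows, GGGTCA, in 13.7%, and GGTTCA, in 10.4%, and none of these stood in the 4 Stra6 windows. The GC box stood in 3 of the 4 and in 35.7% of all windows, and the TATA box letters TATAAA in 0 of the 4 and in 13.6% of all. A direct repeat of any of these hexamers, which then also counts among the single ones, with a spacing of 1, 2 or 5 bases, called DR1, DR2 and DR5, was in 0 of the 4 windows, and in 0.222%, 0.268% and 0.0974% of all windows. The letters of such a repeat are thus rare in windows of this length, and these 4 do not hold them.

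Cdx1 (ENSMUSG00000024619), the homeobox factor, lies on the reverse strand of chromosome 18, with 1 coding transcript of 3 exons and 1750 bases in GENCODE M21. It had 378 and 456 normalized reads in PC replicates 1 and 2, from 456 and 383 reads, and 78.5 and 83.4 in PD replicates 1 and 2, from 81 and 91 reads. Both PC libraries were more than 4 times either PD library, with ratios of a PC to a PD library from 4.53 to 5.80. The Poisson intervals at 95% were 344 to 414 and 411 to 504 in the PC libraries, and 62.4 to 97.6 and 67.1 to 102 in the PD libraries. The means were 417 ± 55.0 in PC and 81.0 ± 3.43 in PD (SD, n = 2 each), a difference of 2.34 on the log2(value + 1) scale. The other caudal genes, Cdx2 and Cdx4, are not analysed here.

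Tgm2 (ENSMUSG00000037820), the transglutaminase, lies on the reverse strand of chromosome 2, with 1 coding transcript of 13 exons and 3596 bases in GENCODE M21. It had 965 and 860.1 normalized reads in PC replicates 1 and 2, from 1165 and 723 reads, and 368 and 306 in PD replicates 1 and 2, from 380 and 334 reads. PC replicate 2 was below PC replicate 1, PD replicate 2 was below PD replicate 1, and the groups did not overlap. The Poisson intervals at 95% were 910.5 to 1022 and 798.5 to 925 in the PC libraries, and 332 to 407.5 and 274 to 341 in the PD libraries. The means were 913 ± 74.3 in PC and 337 ± 44.1 in PD (SD, n = 2 each), a difference of 1.44 on the log2(value + 1) scale, and the ratios of a PC to a PD library ran from 2.33 to 3.15. Exons of Rprd1b and Gm20412 on the other strand overlap 21.8% of the exon bases of Tgm2. The sources used here do not say whether the counting used strand, so reads of Tgm2 and of these genes cannot be told apart there. Exons of Cdx1 and Stra6 overlap no other annotated gene.

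**Figure D1:**
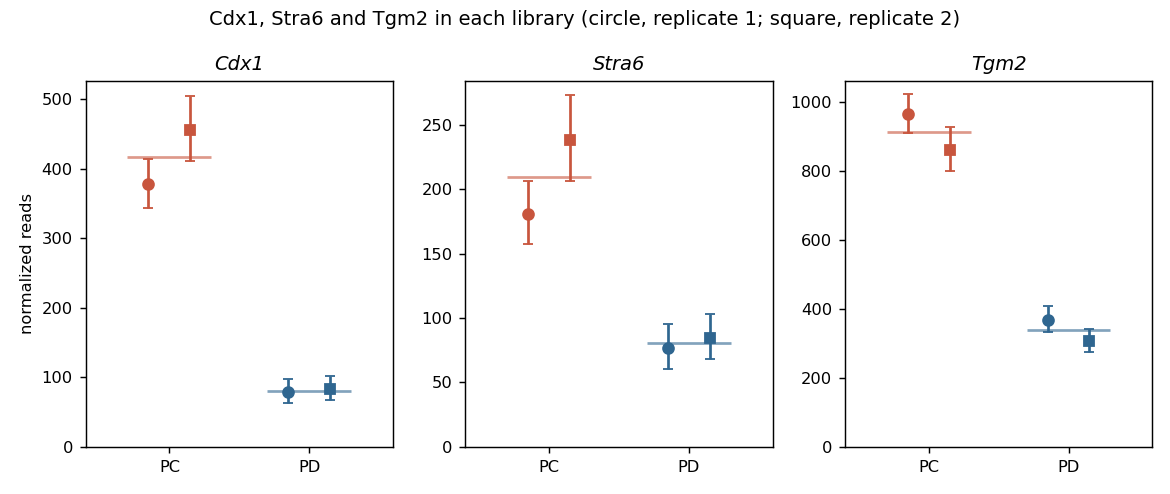
Normalized reads (vertical axis, linear, from 0) of Cdx1, Stra6 and Tgm2 in each PC and PD library; points are libraries, vertical bars their 95% Poisson counting intervals and horizontal lines the group means. For each gene the PC libraries sit above the PD libraries, and PC replicate 2 is above PC replicate 1 for Cdx1 and Stra6 and below it for Tgm2.

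The 3 genes differed from each other in size and in how the replicates lay. The difference between PC and PD was larger for Cdx1 than for Stra6 by 0.99 and than for Tgm2 by 0.91 on the log2 scale, and it was 0.08 larger for Tgm2 than for Stra6. The lowest of the 4 library ratios of Cdx1, 4.53, lay above the highest of Stra6, 3.11, and of Tgm2, 3.15. The ranges of Stra6 and Tgm2 overlapped over most of their length. PC replicate 2 was 1.21 times PC replicate 1 for Cdx1 and 0.891 times for Tgm2. In PD, replicate 2 was 1.06 times replicate 1 for Cdx1, 1.10 times for Stra6 and 0.831 times for Tgm2. Cdx1 and Stra6 thus deviated in the same direction within each group, and Tgm2 in the opposite one.

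Levels can be compared between the 3 genes per length. Dividing by the longest coding transcript of GENCODE M21 gave levels of 254 ± 20.7 normalized reads per kb for Tgm2, 238 ± 31.4 for Cdx1 and 68.0 ± 13.2 for Stra6 in PC cells (SD, n = 2). In PD cells the same levels were 93.8 ± 12.3 per kb for Tgm2, 46.3 ± 1.96 for Cdx1 and 26.1 ± 1.77 for Stra6. Tgm2 and Cdx1 were closer in PC than their replicate spread, whereas in PD they stood apart. Stra6 was the lowest of the 3 per kb in both groups. Its transcripts differ in length, so its level per kb depends on which one is taken.

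The table is a selection: no gene in it has a log2 fold change smaller than 1 in size, and the largest p-value of the authors' test among them is 0.0498. It holds 5.07% of the 31432 genes tested by the authors. Of its 1593 genes, 613 were higher and 980 lower in PC, with a median log2 difference of -1.17. Both PC libraries were above both PD libraries in 38.2% of the genes and below them in 61.5%, and the groups did not overlap in 99.7%, so the lack of overlap in the 3 genes says nothing particular about them. By the log2 difference, Cdx1 stood at place 88, Tgm2 at place 288 and Stra6 at place 338 of the 613 higher genes.

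**Figure D2:**
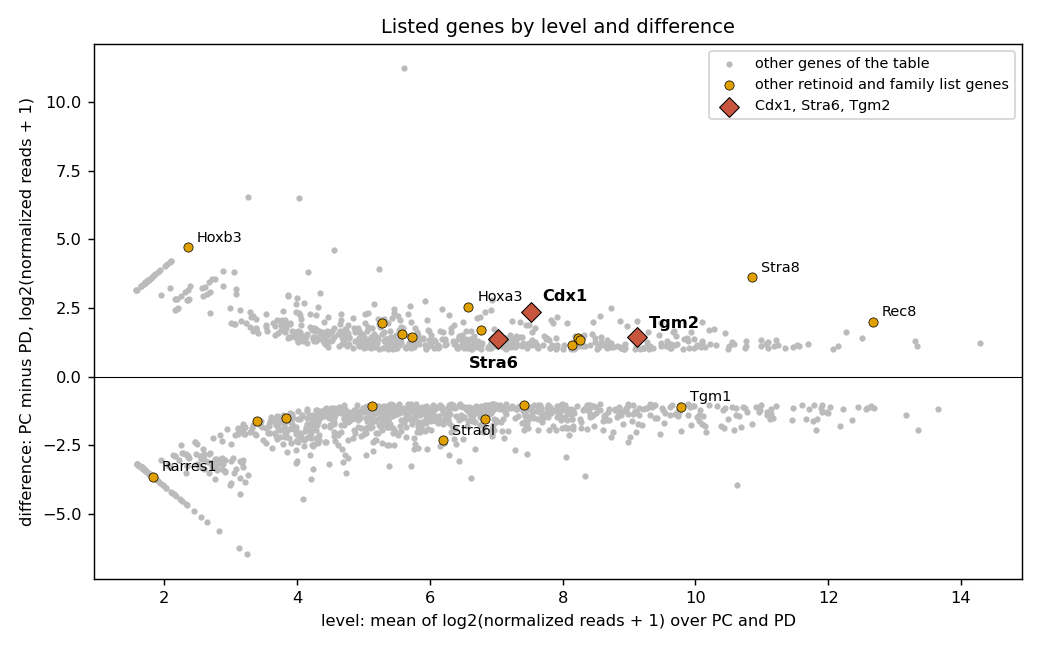
Level (horizontal axis, mean of log2(normalized reads + 1) over PC and PD) against difference (vertical axis, PC minus PD on that scale) for the 1593 listed genes; diamonds are Cdx1, Stra6 and Tgm2, and yellow circles the 19 other genes of the retinoid and family lists. The empty band around 0 is the selection of the table, and Cdx1, at 2.34, lies above most genes of its level while Stra6 and Tgm2, at 1.36 and 1.44, lie within the upper band.

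The other genes of the pathway were taken from lists by role, written with earlier results of these data known. Of 93 genes other than the 3, 19 were in the table, 11 higher and 8 lower in PC. They were tested with limma over the whole table, with Benjamini-Hochberg adjustment over the 31432 genes. At an adjusted p under 0.05, 8 rose and 2 fell, where 11.2% of all listed genes rose, 19.8% fell and 31.1% were called in all. Scaling by the trimmed mean of M-values (TMM) takes most genes as unchanged, whereas this table was selected for changed genes. With libraries scaled by TMM over the listed genes, 10 of the list genes rose and 1 fell. The balance of all calls turned, to 279 higher and 105 lower. With the deposited scaling, nearly all calls among the list genes were lost when a single library was left out. Rarres1 was the one still called without PD replicate 1 or PD replicate 2, and Hoxb3 without PC replicate 1 or PC replicate 2. Each of these has a group with 0 reads, and a group left with 1 library was assumed to vary like the other.

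Of 37 other genes known to be induced by retinoic acid, 13 (35.1%) were in the table, against 5.07% of the genes tested by the authors. Of the 13, 11 were higher in PC, with a median log2 difference of 1.54 against -1.17 over all listed genes. The list was written with earlier results of these data known, so this contrast is not independent of them. The median is the same with Hoxb3 and Rarres1, which have a group at 0 reads, at their bounds. Of the 13, 8 rose, 1 fell and 4 were not called, where 11.2% of all listed genes rose and 19.8% fell. Stra8, a gene that germ cells switch on to enter meiosis, had 5847 and 7125 normalized reads in the PC libraries and 592 and 472 in the PD libraries, a log2 difference of 3.61 (SE 0.16; limma, Benjamini-Hochberg adjusted p = 0.011). It was the largest change of the list among genes with reads in both groups. Rec8, a cohesin subunit of meiotic chromosomes, rose by 1.99 (SE 0.08), to 13047 ± 421 in PC, against 3278 ± 163 in PD (SD, n = 2 each).

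Hox genes of the 3′ side of the clusters, which retinoic acid activates early, were also present. Hoxa3 had 221 and 238 normalized reads in PC and 33.9 and 44.0 in PD, a log2 difference of 2.54 (SE 0.22; limma, Benjamini-Hochberg adjusted p = 0.0143), close to that of Cdx1. Hoxb3 had 47.2 and 13.1 in PC and 0 reads in both PD libraries, at least 10.7-fold higher when each PD library is set to a floor of 3 reads. That bound is 4.63-fold without PC replicate 1 and 16.7-fold without PC replicate 2. Hoxb3 passed, but not with a pseudocount of 10 or a minimum mean of 10 (limma, Benjamini-Hochberg adjusted p = 0.127 and 0.0681), and 52.9% of its exon bases overlap its antisense gene Hoxb3os. Hoxa4 had 58.0 and 98.7 in PC and 12.6 and 27.5 in PD, and Hoxa5 had 91.1 and 80.9 in PC and 29.1 and 33.9 in PD. Neither passed (limma, Benjamini-Hochberg adjusted p = 0.307 for Hoxa4 and 0.116 for Hoxa5). Hoxa5 passed with TMM scaling (limma, Benjamini-Hochberg adjusted p = 0.0428). Both passed with a replicate block, but that fit pairs libraries by number, which no label states, and is not taken as support. Exons of Hoxa3 and Hoxa4 also overlap other genes, over 27.1% and 16.0% of their bases.

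Foxa1 and Gata6, which also rose, encode factors known from endoderm. Foxa1, a forkhead factor that opens chromatin, had 429 and 552 normalized reads in PC and 199 and 188 in PD (log2 difference 1.33, SE 0.16). Gata6, a zinc finger factor of primitive endoderm, had 380.3 and 468 in PC and 193 and 184 in PD (log2 difference 1.16, SE 0.15). For Foxa1 and Gata6, PC replicate 2 was above PC replicate 1. The same order held for Cdx1, Stra6, Stra8, Rec8, Hoxa3, Hoxa4 and Nr2f1, and the reverse for Tgm2, Hoxb3 and Hoxa5. Foxa1 and Gata6 lost their call at a pseudocount of 0.1 (limma, Benjamini-Hochberg adjusted p = 0.0548 for Foxa1 and 0.0618 for Gata6). Nr2f1, an orphan nuclear receptor, had 79.5 and 80.9 in PC and 28.1 and 25.7 in PD and did not pass (limma, Benjamini-Hochberg adjusted p = 0.0926). It passed with TMM scaling and with a minimum mean of 10 (limma, Benjamini-Hochberg adjusted p = 0.0355 and 0.0472). It also passed with the replicate block, which is not taken as support.

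The 2 genes of the list that were lower in PC were Rarres1 and Wnt5a. Rarres1, a membrane protein gene first found as induced by retinoids in human skin, had 0 reads in both PC libraries and 14.5 and 9.16 normalized reads in the PD libraries, at least 3.92-fold lower when each PC library is set to that floor (limma, Benjamini-Hochberg adjusted p = 0.0197). It rests on 15 and 10 reads. Wnt5a, a secreted signal, had 75.4 and 55.9 in PC and 295 and 127 in PD and did not pass (limma, Benjamini-Hochberg adjusted p = 0.387).

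The closest relative of Stra6 lay on the other side, lower in PC, as were 61.5% of all listed genes. Stra6l, which in mouse liver and intestine takes up retinol much as Stra6 does elsewhere, had 44.7 and 22.6 normalized reads in the PC libraries and 198 and 136 in the PD libraries, a log2 difference of -2.33 (SE 0.40). It did not pass (limma, Benjamini-Hochberg adjusted p = 0.0951). It passed with a pseudocount of 10, with a minimum mean of 10 and with voom on the recovered reads (adjusted p from 0.0304 to 0.0409), and not with TMM scaling (0.343). The retinol-binding protein gene Rbp2 of the intestine had 6.63 and 8.33 in PC and 20.4 and 25.7 in PD, and did not pass (limma, Benjamini-Hochberg adjusted p = 0.328). These were the 2 listed genes of 11 for uptake, transport and binding other than Stra6.

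Of 24 genes of retinoid synthesis and storage 2 (8.33%) were listed, against 5.07% of all genes tested by the authors. Both were lower in PC, as were 61.5% of all listed genes without overlap between the groups. Aldh1a3, which oxidizes retinal to retinoic acid, had 22.4 and 23.8 normalized reads in PC and 41.7 and 60.5 in PD. Adh7, an alcohol dehydrogenase that acts on retinol, had 4.14 and 5.95 in PC and 14.5 and 21.1 in PD, and neither passed (limma, Benjamini-Hochberg adjusted p = 0.543 for Aldh1a3 and 0.325 for Adh7). Of 3 Cyp26 genes, which degrade retinoic acid, and of 13 genes of retinoid receptors and their cofactors, 0 were in the table. Rarb and Cyp26a1, both known targets of RAR in stem cells, are therefore not analysed here.

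Tgm2 likewise differed in direction from its listed relatives, which were lower in PC, as were 61.5% of all listed genes. Tgm1, the transglutaminase of the skin barrier, had 632 and 577 normalized reads in PC and 1208 and 1376 in PD, a log2 difference of -1.09 (SE 0.11; limma, Benjamini-Hochberg adjusted p = 0.0207). This call was lost with TMM scaling (log2 difference -0.42; limma, Benjamini-Hochberg adjusted p = 0.637). Tgm3, of hair and skin, had 131 and 107 in PC and 202 and 293 in PD and was not called (limma, Benjamini-Hochberg adjusted p = 0.23). The other 6 of 8 relatives are not analysed here.

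**Figure D3:**
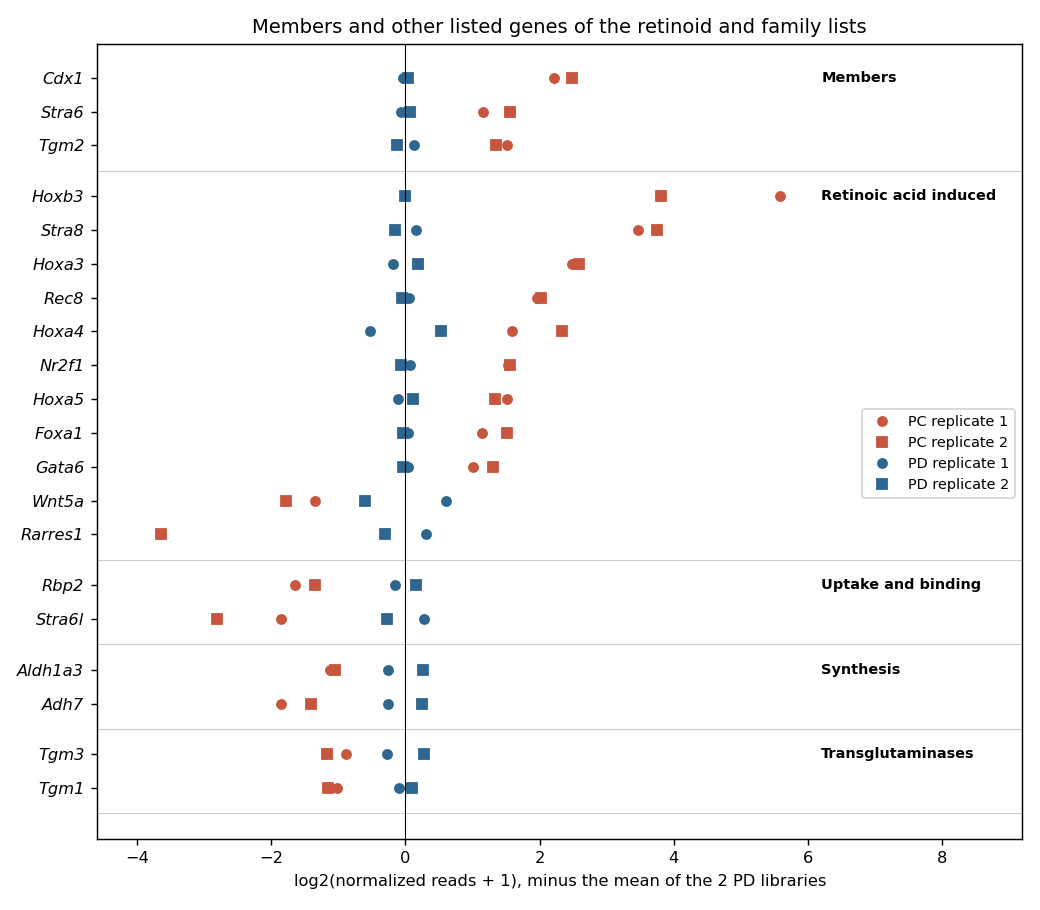
Listed genes of the retinoid and family lists in each library, as log2(normalized reads + 1) minus the mean of the 2 PD libraries (horizontal axis), grouped by role; circles are replicate 1 and squares replicate 2, red PC and blue PD. Red points lie to the right of blue ones for the 3 members and for the other induced genes from Hoxb3 to Gata6, and to the left for Wnt5a, Rarres1 and the 6 listed genes of uptake, synthesis and the transglutaminases.

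The genes most like each member were found by the distance between log2 values over the 4 libraries, each gene centred on its own mean, among 1451 genes with a mean of at least 10 normalized reads. This is a description over 4 libraries, and the groups set most of the distance. Among the nearest to Stra6 were Wnt11, a secreted Wnt signal, at a distance of 0.052, Ucp2, an uncoupling protein of mitochondria, at 0.064, the T-box factor Tbx15 at 0.084 and, farther away, the predicted gene Gm11734. All of these had higher normalized reads in PC replicate 2 than in PC replicate 1, as Stra6 did, which the choice by distance largely fixes. Ucp2 had 13849.7 and 18279 normalized reads in the PC libraries and 6254 and 6579 in the PD libraries.

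Nearest to Tgm2 were Fam227a at a distance of 0.025, the calcium pump gene Atp2a1 at 0.083, the atypical kinase gene Mapk4 at 0.127, the homeobox gene Mnx1 at 0.146 and the iron-binding protein gene Meltf at 0.148. Fam227a had 217 and 192 normalized reads in PC and 82.4 and 66.9 in PD. Nearest to Cdx1 were Gm45847 at 0.176, AV099323 at 0.188, the F-box gene Fbxo36 at 0.210, BC048679 at 0.252 and Shisa8 at 0.258. The genes near Cdx1 were farther from it than those near Stra6 and Tgm2 were from them. The members were not each other's nearest genes: Stra6 and Tgm2 were 0.496 apart, and Cdx1 was 0.992 from Stra6 and 0.989 from Tgm2.

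**Figure D4:**
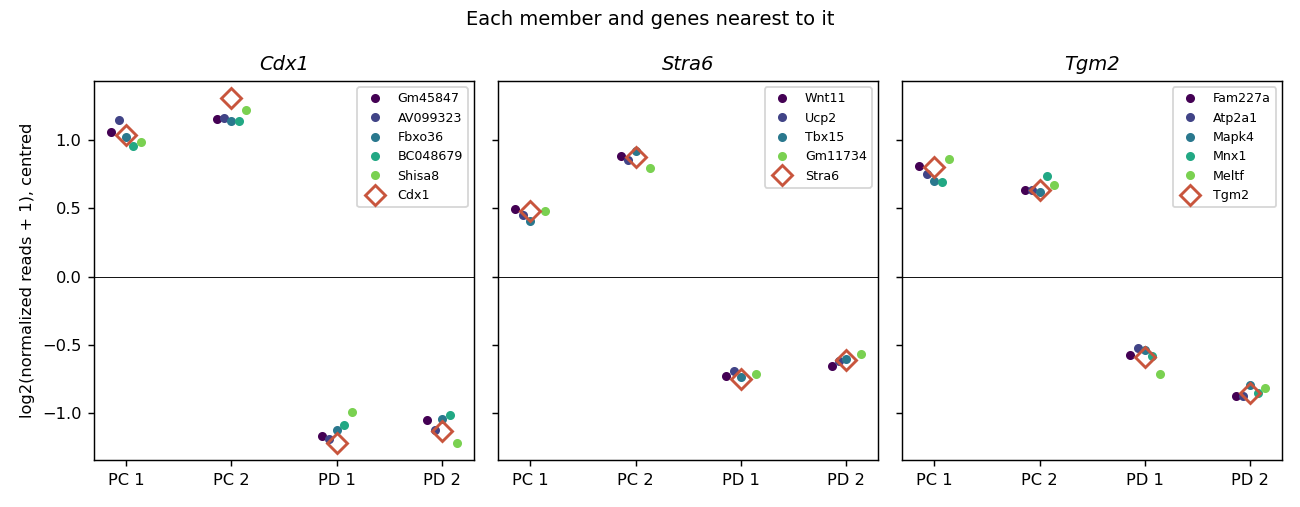
Centred log2(normalized reads + 1) (vertical axis) of Cdx1, Stra6 and Tgm2 (open diamonds) and of genes nearest to each (filled circles) in the 4 libraries (horizontal axis). Stra6 and the genes shown with it are higher in PC replicate 2 than in PC replicate 1, which the choice by distance largely fixes. Tgm2 lies lower in replicate 2 than in replicate 1 in both groups.

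Genes near the members along the chromosome were in the table about as often as all genes, of which 5.07% were listed. Within 500 kb of Cdx1, 0 of 31 annotated genes of GENCODE M21 were listed. Near Stra6 3 of 34 were listed. Rec114, a gene of meiotic recombination, had 155 and 175 normalized reads in PC and 340.4 and 364 in PD, a log2 difference of -1.09 (SE 0.14; limma, Benjamini-Hochberg adjusted p = 0.0364), opposite in direction to Stra6. Its call was lost with TMM scaling and without any 1 of the 4 libraries (limma, Benjamini-Hochberg adjusted p from 0.345 to 0.786). The long noncoding RNA 4930461G14Rik had 642 and 771 in PC and 316 and 368 in PD, and Islr 43.1 and 47.6 in PC and 27.1 and 12.8 in PD, and neither passed (limma, Benjamini-Hochberg adjusted p = 0.0509 and 0.854). Near Tgm2 2 of 34 were listed. Vstm2l had 159.9 and 164 in PC and 77.6 and 67.8 in PD, and Arhgap40 14.1 and 21.4 in PC and 56.2 and 45.8 in PD, and neither passed (limma, Benjamini-Hochberg adjusted p = 0.0732 and 0.291).

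Markers of cell identity were also in the table, of whose genes 61.5% were lower and 38.5% higher in PC. Of 10 markers of embryonic stem cells 3 were listed, Utf1, Lin28a and Tdh, all lower in PC. Their summed level was 13885 to 14401 normalized reads in PC and 34231 to 35052 in PD. The other markers of that list did not meet the cut of the table or were not tested, and are not analysed here. Of 10 markers of extra-embryonic endoderm 2 were listed, Gata6 and Sox17, both higher, with a sum of 466 to 512 in PC and 209.9 to 221 in PD. Of 8 fibroblast markers Col3a1 was listed, at 38.9 to 48.8 in PC and 89.2 to 114 in PD, and of 6 neural progenitor markers 0 were listed. Their part in the values of Cdx1, Stra6 and Tgm2 was not tested. Reads on the listed genes came to 601713 and 433684 in the PC libraries and 632042 and 683777 in the PD libraries, and the full depth is unknown.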

How the data were processed

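RNA sequencing libraries of PC and PD cells, 2 each, were grouped by the labels' titles; the labels do not say that replicates were separate cultures, and p-values then reflect only how these libraries vary, possibly for technical reasons. The authors deposited log2 values per gene and library, per the file headers. With the log undone and 1 subtracted, 100.0% of values in each library were whole multiples of 1 step, within 0.001 reads, so each is log2 of (reads divided by a size factor, plus 1). Per the file headers, p-values and false discovery rates from a test by the authors stand beside them. Bowtie 0.12.2 and mm9 are named, with no role, in the submitters' processing notes; the sources used here do not give the counting tool, its strand setting or the test. GENCODE M21 and RefSeq describe GRCm38, so they were used for names, lengths, overlaps and neighbours, and 1589 of 1593 gene IDs matched.

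The log2 values were fitted with limma 3.58.1 in R 4.3.3 (trended prior, 2 residual degrees of freedom, no replicate block, mean of at least 1 normalized read), adjusted over the 31432 genes the authors tested, with unlisted genes taken as having larger p-values. In the authors' test the ranks of the listed genes reached 8099, so many unlisted genes had p-values below the largest listed one. That assumption thus does not hold in their test, and the adjusted p can be too large. The spread came from selected genes only, which can make it too small and acts the other way. The fit was tested on simulated data. Members and lists were chosen with earlier results of these data known. Named are the members, listed genes of the lists, the 5 nearest genes to each member and listed neighbours; a few of these are counted but not reported here by name. Alternatives were other pseudocounts, filters and scaling, a replicate block, leaving out each library and, chosen after seeing the data, voom on the recovered reads and the authors' false discovery rates.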

Additional observations from a re-analysis of the deposited data

How the results depend on the processing

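Cdx1, Stra6 and Tgm2 were higher in PC under every alternative tried for them. Their groups do not overlap, so leaving out a library or changing the pseudocount could not turn the direction. The unchanged direction is therefore no support for it. Their log2 differences ranged from 2.21 to 2.48 for Cdx1, 1.16 to 1.55 for Stra6 and 1.30 to 1.57 for Tgm2 with 1 library left out, and moved by less than the replicate SD with pseudocounts of 0.1 or 10 and with voom. TMM scaling over the listed genes, most of which are lower in PC, moved the median difference of all listed genes by 0.66 and gave 3.01 for Cdx1, 2.02 for Stra6 and 2.11 for Tgm2. It called 279 genes higher and 105 lower, against 179 and 316 with the deposited scaling. TMM takes most genes as unchanged, so on a table selected for change this shift cannot tell which scaling is right. The 495 calls became 1176 with a replicate block, 1119 by the authors' false discovery rates, and 33 to 61 with 1 library left out. The 10 calls among the other list genes became 16 with the replicate block and 15 by the authors' false discovery rates. Of those 15 genes, 11 were higher and 4 lower in PC. The block added Hoxa4, Hoxa5, Nr2f1, Stra6l, Tgm3 and Wnt5a. It leaves fewer residual degrees of freedom than the main fit. Its p-values were extreme for so few libraries, such as 1.54e-95 for Stra8 (limma, Benjamini-Hochberg adjusted p). Calls gained with it are therefore not taken as support. The cause of the changed counts was not tested. The deviations of same-numbered libraries correlated at -5.8e-05 over the listed genes. This shows no shared deviation in these selected genes and cannot tell whether the samples were collected in pairs, which no label states. Of 132 values of the 19 list genes with all libraries kept, 0 changed direction, 6 lost a call and 12 gained one; with 1 library left out 36 of 76 lost a call. The groups do not overlap in any of these list genes either, so with the deposited scaling their unchanged direction was fixed in advance. Hoxb3 lost its call at a pseudocount of 10 and with a minimum mean of 10. The count tests planned for count tables were not run, since the deposited values are on a log2 scale. Counting error limits genes with few reads, such as Rarres1 and Adh7.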

Other observations

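The gene ontology annotation in the deposited table marks 13 listed genes with response to retinoic acid, and Cdx1, Stra6 and Tgm2 are not among them. Of the 13, 6 were higher in PC, among them Stra8 and the receptor kinase gene Ntrk3, and 7 were lower, among them the Nodal antagonist gene Lefty1, the Wnt antagonist gene Dkk1 and the receptor kinase gene Tek. These genes were named after their values were seen. By limma with Benjamini-Hochberg adjustment 4 of them rose, 5 fell and 4 were not called. Over all listed genes 11.2% rose, 19.8% fell and 31.1% were called in all. Called or not, 38.5% of all listed genes were higher in PC. The 13 annotated genes had a median log2 difference of -1.28, against -1.17 over all listed genes. The 5 listed genes annotated to retinoid metabolism, Rbp2, Cyp1b1, Adh7, Aldh1a3 and Akr1c18, were all lower in PC and did not pass, where 61.5% of all listed genes were lower. Cdx1, Stra6 and Tgm2 have 80, 78 and 116 annotated terms and share 8, the rarest of which, multicellular organismal process, is on 26.2% of the listed genes.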
